A study of Thlaspi arvense with 6 samples.

Results

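The genes described here serve the endoplasmic reticulum, the membrane compartment where proteins bound for secretion, membranes and vacuoles enter the secretory pathway and fold. They are 69 of the 12335 loci measured in pennycress (Thlaspi arvense) nectaries, the floral glands that release nectar. A locus is a predicted pennycress protein with its assembled transcripts (contigs) summed, and it was taken by words in the description of its best Arabidopsis match, with no difference between the stages used: protein disulfide, PDI-like, calreticulin, calnexin, SEC61, signal recognition, signal peptidase, translocon, oligosaccharyl, endoplasmic reticulum or DERLIN. Descriptions naming an unknown protein or thioredoxin were dropped, and the set was chosen with earlier results of these data known. Where a locus had several contigs, the description was that of the contig with the highest mean over all 6 samples. The words also took 16 loci of the plastid import and plastid signal recognition machinery, since these carry the same terms, and such loci are given separately, so that 53 loci remain outside plastids. They matched 65 distinct Arabidopsis genes in all.

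RNA was sequenced from 3 samples of immature nectaries (stages 11 to 12, before nectar is secreted) and 3 samples of mature nectaries (stages 14 to 15, during secretion) of the cultivar MN108. No mutant, transgene or treatment was involved, and all plants were about 40 days old, kept at 16 h light and 8 h dark, and sampled 4 to 8 h after dawn. Each sample pooled hand-dissected nectaries from its own set of plants (100 per sample in the labels), so a value is an average over many glands and plants. The values are normalized read counts per contig, so levels can be compared between samples for a locus but not between loci, whose transcript lengths were not used here.

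A protein that enters this pathway is first recognised on the ribosome by the signal recognition particle (SRP), which docks on its receptor at the membrane. The chain passes through the SEC61 channel, loses its signal peptide to signal peptidase and receives N-glycans from oligosaccharyltransferase. The lectin chaperones calnexin and calreticulin hold the glycosylated chain while protein disulfide isomerases (PDI) and the oxidoreductin ERO form its disulfide bonds. Chains that fail to fold are drawn back out through a channel in which DERLIN proteins take part.

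Genes of nectaries were looked at in the labelled tissue, with no other tissue measured beside it. The sugar exporter SWEET9 was 22.9-fold higher, the cell wall invertase CWINV4 3.22-fold higher and the nectary regulator CRABS CLAW 1.55-fold higher in mature than in immature nectaries, and all of them had at least 3810 normalized counts in every sample. The limma adjusted p was 1.55e-05, 0.00167 and 0.049 in this order, the last just under the threshold of 0.05. Deposited totals were 10.6 to 22.7 M normalized counts per sample. The steps between low values put these at approximately 11.7 to 16.9 M reads assigned to contigs, which is not the number of reads sequenced. Of the assigned reads, 4.32 M (mature replicate 2) to 14.7 M (immature replicate 3) were neither ribosomal nor of organelles. Of 9 pollen and anther genes listed, 4 had a locus, and all of these were called higher in mature nectaries, with VGD1 at 73, 215 and 81 normalized counts in immature nectaries and 13877, 1583 and 4424 in mature ones. Their part in the results below was not tested. Of the phloem and stomata markers with a locus, SUC2 was at 70 to 220 normalized counts and was not called, and FAMA was at 140 to 175 in immature and 72 to 119 in mature nectaries and was called lower.

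Of the 69 loci, 64 had a mean normalized count of 100 or more at one stage or the other and were tested with limma. At an adjusted p under 0.05, 33 were lower and 8 higher in mature than in immature nectaries, and 23 were not called. Over all 11780 loci tested, 35.9% were lower and 28.4% were higher at the same threshold. The other 5 loci were under the filter: the SRP9/SRP14 subunit (Ta22207), a further signal peptidase subunit SPC12 (Ta16244), a locus of GPI anchor synthesis (Ta03717), TOC120 (Ta08795) and the plastid SECE (Ta14673). They were at 10 to 127 normalized counts in all samples. A change of more than 2-fold in the means, beside the call, was reached by 19 loci that fell, against 23.0% of all loci, and by 2 that rose, against 13.8% of all loci. In 39 of the 64 loci every mature sample was below every immature sample, and in 10 every one was above, against 39.1% and 30.9% of all loci. The median log2 fold change was -0.51, and it was -0.09 over all loci.

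Outside plastids, 26 of the 50 loci tested fell (52%), 5 rose (10%) and 19 were not called, against 35.9% lower and 28.4% higher of all loci. Beyond 2-fold were 14 of the falls (28%) and 1 of the rises (2%), against 23.0% and 13.8% of all loci. The share of falls beyond 2-fold was thus near that of all loci. The median log2 fold change was -0.55. Summed over these loci, their share of the counts at nuclear loci was 0.707 to 0.772% in the immature samples and 0.298 to 0.408% in the mature samples, so the groups did not overlap. Abundant loci weigh most in this share. The lectin chaperones summed to 20264 normalized counts in mean in immature and 4894 in mature nectaries. The sums of the SRP and receptor loci (targeting) went from 3557 to 4674 and those of the DERLIN loci from 1660 to 1718. The sums of the other roles outside plastids fell. In whole glands, fewer cells of a type and less RNA per cell cannot be told apart. The shares of falls and rises differed between the roles, as the plot of log2 fold changes by role shows. Each role outside plastids held only 2 to 12 loci tested, and differences between roles were not tested.

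**Figure D1:**
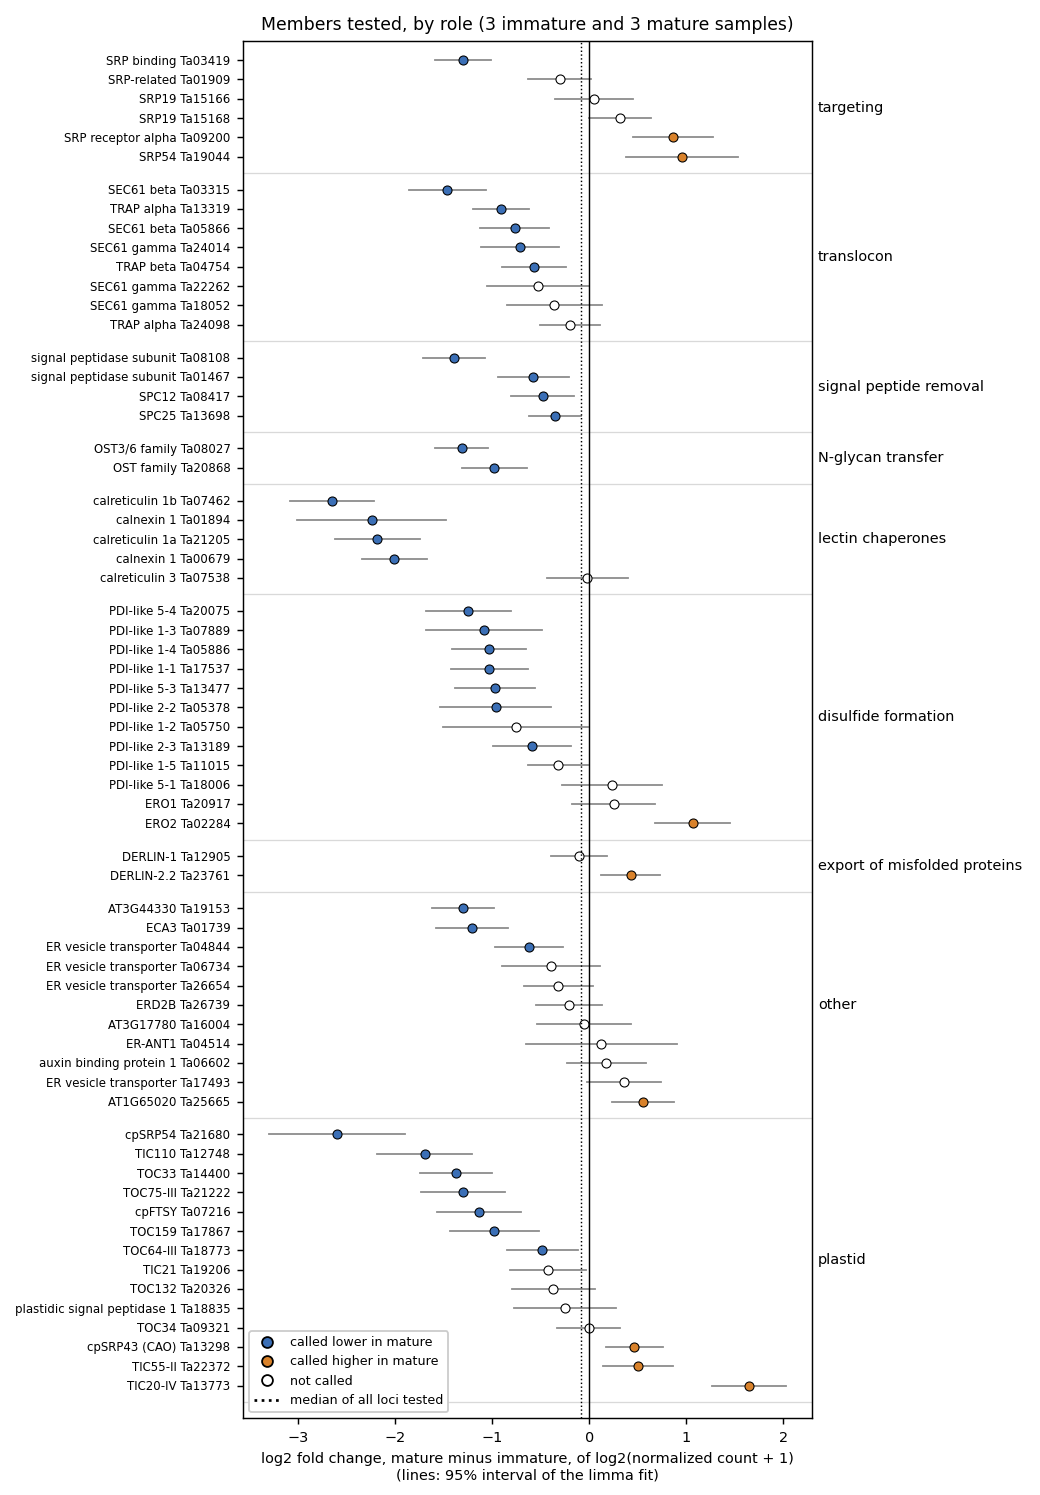
Log2 fold change of each of the 64 loci tested, in mature minus immature nectaries (3 samples each), grouped by role, with the 95% interval of the limma fit as lines; blue and orange points passed an adjusted p of 0.05, and open points did not. The calreticulins 1a and 1b and the calnexins lie furthest left among the loci outside plastids, while SRP54, the SRP receptor alpha subunit and ERO2 lie right of 0.

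The targeting step moved in opposite directions. SRP54 (Ta19044, AT1G48900), the subunit that binds the signal peptide and GTP, was at 656, 596 and 1019 normalized counts in immature nectaries and at 1646, 1080 and 1646 in the mature samples. All mature samples were higher, with the lowest of them close to the highest immature one. The log2 fold change was 0.96 ± 0.25 (SE, n = 3 and 3, limma adjusted p = 0.00979). The SRP receptor alpha subunit (Ta09200, AT4G30600), to which the particle docks, was at 855, 772 and 1195 in the immature and at 1675, 1688 and 1673 in the mature samples, a log2 fold change of 0.86 ± 0.18 (adjusted p = 0.00331). The mature samples were nearly the same and the immature samples varied, with replicate 3 the highest, as for SRP54.

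A locus described as SRP binding (Ta03419, AT5G05670) went the other way. It was at 594, 536 and 516 normalized counts in immature and 231, 210 and 223 in mature nectaries, and fell by 1.30 on the log2 scale (SE 0.13, adjusted p = 6.33e-05). The other 3 targeting loci tested were not called. SRP19 is a subunit that binds the RNA of the particle, and its locus Ta15168 had 467 ± 18.5 (SD, n = 3) counts in immature and 586 ± 74.1 in mature nectaries, with an adjusted p of 0.0719 that became 0.0427 without mature replicate 2, 0.0211 with rescaling by median ratios and 0.0196 by trimmed means. The other SRP19 locus (Ta15166) had 183 ± 31.9 and 188 ± 15.1, and an SRP-related locus (Ta01909) had 572 ± 39.5 and 464 ± 55.1 (adjusted p = 0.0885, and 0.00537 after rescaling to totals). The targeting loci had a median log2 fold change of 0.18.

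At the membrane channel, 5 of 8 loci fell (62.5%) and none rose, against 35.9% lower and 28.4% higher of all loci. The largest fall was that of the SEC61 beta locus Ta03315 (AT2G45070), from 2764, 2565 and 1960 normalized counts in the immature to 828, 805 and 994 in the mature samples, a log2 fold change of -1.46 (SE 0.17, adjusted p = 0.000178). SEC61 beta is the small tail-anchored subunit of the channel, and this locus summed contigs of AT2G45070 and AT3G60540, all of them lower in mature nectaries. A more distant SEC61 beta locus (Ta05866, AT5G60460) fell by 0.77 (SE 0.16, adjusted p = 0.00285). The translocon-associated proteins, which sit beside the channel, were represented by TRAP alpha and beta. TRAP alpha (Ta13319, AT2G21160) was at 1722, 1783 and 1756 in immature and at 881, 928 and 992 in mature nectaries, and TRAP beta (Ta04754, AT5G14030) was at 1975, 1962 and 1902 and at 1179, 1255 and 1519. Their log2 fold changes were -0.91 (adjusted p = 0.000368) and -0.57 (adjusted p = 0.00863), and the stages did not overlap in either. A further TRAP alpha locus (Ta24098, AT2G16595) was not called, at 299 ± 30.8 and 260 ± 3.06 (SD, n = 3).

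SEC61 gamma, the subunit that clamps the channel, had 3 loci. Ta24014 (AT3G48570) fell by 0.71 (SE 0.18, adjusted p = 0.00761), from 313 ± 48.7 to 191 ± 31.5 normalized counts. The other 2 loci were lower in mean but not called. Ta22262 (AT5G50460) was at 1143, 1181 and 802 in immature and 555, 920 and 706 in mature nectaries (adjusted p = 0.0706), and Ta18052 (AT4G24920) was at 1717, 1594 and 1104 and at 909, 1199 and 1312 (adjusted p = 0.172). In each, immature replicate 3 was the lowest immature sample and lay within the mature range. Without it the adjusted p was 0.0319 for Ta22262 and 0.0422 for Ta18052, and it was 0.0192 for Ta22262 without mature replicate 2. The channel-forming SEC61 alpha was not among the 69 loci because its description names SecY, and its locus Ta19947 was 4137 in mean in immature and 1902 in mature nectaries, a log2 fold change of -1.12 (SE 0.15, adjusted p = 0.000313). The median log2 fold change of the channel loci was -0.64. SEC63 was also outside the 69 loci. Its locus Ta08894 (AT1G79940) was at 797, 811 and 931 in immature and 1044, 1033 and 1072 in mature nectaries. It was not called (log2 fold change 0.31, adjusted p = 0.0594). It was called higher after rescaling by median ratios (adjusted p = 0.0144) or trimmed means (0.0126), and without immature replicate 3 (0.0379). The SEC63 locus Ta17739 (AT4G21180) was not called (log2 fold change -0.10, adjusted p = 0.59).

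All 4 signal peptidase loci tested fell, against 35.9% of all loci. A locus of AT5G27430 (Ta08108), a subunit of the complex that cuts off signal peptides, fell by 1.40 on the log2 scale (SE 0.14, adjusted p = 7.05e-05), from 768, 757 and 666 normalized counts in the immature to 255, 265 and 312 in the mature samples. Its paralog of AT3G05230 (Ta01467) went from 343, 332 and 291 to 180, 224 and 246, a log2 fold change of -0.58 (SE 0.16, adjusted p = 0.0129). The subunits SPC12 (Ta08417) and SPC25 (Ta13698) had log2 fold changes of -0.48 (adjusted p = 0.017) and -0.35 (adjusted p = 0.0292), from 1620 ± 175 to 1159 ± 69.7 and from 1135 ± 20.5 to 889 ± 5.57 (SD, n = 3). The falls other than that of Ta08108 were lost when samples were left out: without immature replicate 1 the adjusted p was 0.0586 for Ta01467, 0.0802 for SPC12 and 0.1 for SPC25, and without immature replicate 2 it was 0.0515, 0.0663 and 0.107. SPC25 was also not called without mature replicate 3 (0.0789). Ta01467 and SPC25 lost their calls when the samples were rescaled by median ratios or by trimmed means.

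N-glycan transfer was represented by 2 loci, and both fell. The OST3/6 locus (Ta08027, AT1G61790), a subunit of oligosaccharyltransferase, was at 1056, 1099 and 1153 normalized counts in immature and 435, 443 and 448 in mature nectaries, a log2 fold change of -1.32 (SE 0.12, adjusted p = 4.41e-05). The spread within each stage was small beside the difference. The locus Ta20868 fell by 0.98 (SE 0.15, adjusted p = 0.000558), but it summed 2 contigs with different Arabidopsis matches. The contig of AT4G29870 went from 533, 530 and 436 to 147, 159 and 131, while that of AT2G19340 was at 128, 104 and 108 in immature and 174, 179 and 142 in mature nectaries. The fall of the locus was therefore that of 1 contig, and the other contig was higher in every mature sample.

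The lectin chaperones showed the largest differences outside plastids, with 4 of 5 loci lower in mature nectaries by at least 4-fold. These soluble and membrane-bound proteins bind calcium and the glucose-bearing glycans of folding chains. Calreticulin 1b (Ta07462, AT1G09210) was at 4115, 4330 and 4950 normalized counts in immature nectaries and at 549, 834 and 776 in the mature samples. It was 6.20-fold lower in the mean, with a log2 fold change of -2.65 ± 0.19 (SE, n = 3 and 3, adjusted p = 1.45e-05). Calreticulin 1a (Ta21205, AT1G56340) was at 7980, 8492 and 8220 in immature and 1430, 1838 and 2252 in mature nectaries, 4.47-fold lower (log2 fold change -2.18 ± 0.19, adjusted p = 3.82e-05). Calnexin 1 (Ta00679, AT5G61790), the membrane-bound form, was at 5997, 5813 and 5817 and at 1295, 1478 and 1618, 4.01-fold lower (log2 fold change -2.01 ± 0.15, adjusted p = 1.61e-05). In all of these the highest mature sample was below 0.5 of the lowest immature sample.

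A further calnexin locus (Ta01894) was at 721, 819 and 1546 normalized counts in immature and 213, 142 and 280 in mature nectaries, a log2 fold change of -2.24 ± 0.33 (adjusted p = 0.000549). Its immature samples varied more than those of Ta00679, with replicate 3 the highest. Ta00679 summed contigs of the 2 Arabidopsis calnexins AT5G61790 and AT5G07340, from 4409 to 990 and from 1467 to 473 in mean, and both contigs were lower in every mature sample. Calreticulin 3 (Ta07538, AT1G08450), a plant form that in Arabidopsis serves the folding of certain receptor kinases, did not follow the others. It was at 631, 594 and 767 in immature and 747, 521 and 709 in mature nectaries, and the stages overlapped throughout. Its log2 fold change was -0.02 with a 95% interval of -0.43 to 0.39 (adjusted p = 0.93), an interval that does not reach the values of the other 4 loci. Reads of such close relatives were assigned by sequence similarity, so counts of paralogs may share reads.

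**Figure D2:**
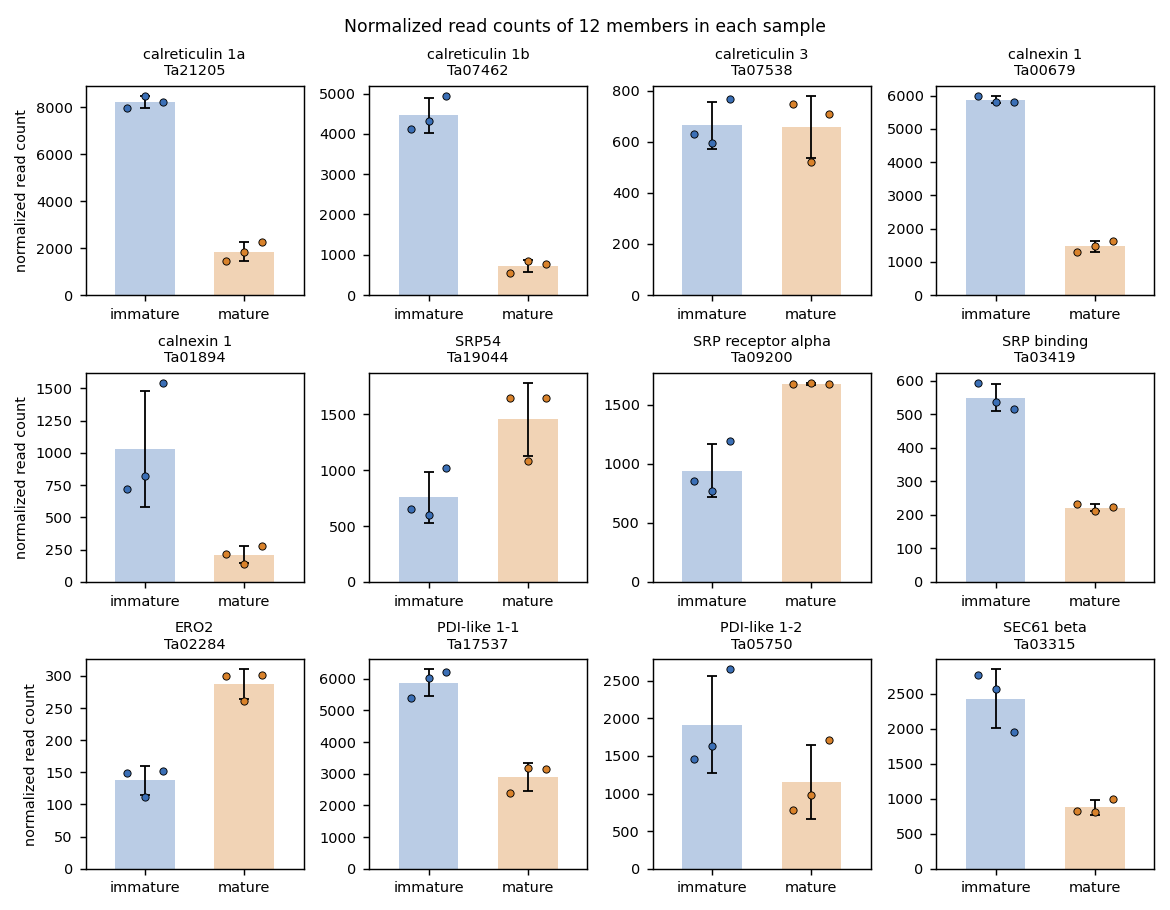
Normalized read counts (linear axis from 0) of 12 loci in each immature (blue) and mature (orange) sample, with bars for the mean and error bars for the SD over 3 samples; points run from replicate 1 at the left to replicate 3 at the right. Calreticulins 1a and 1b and both calnexin loci were lower in every mature sample, calreticulin 3 overlapped between stages, and SRP54, the SRP receptor alpha subunit and ERO2 were higher in every mature sample.

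Of 12 loci of disulfide formation, 7 fell (58.3%), 1 rose (8.33%) and 4 were not called, against 35.9% lower and 28.4% higher of all loci. The median log2 fold change was -0.86 (-0.59 without mature replicate 1). PDI-like proteins carry the thioredoxin folds that make and exchange disulfide bonds. PDI-like 1-1 (Ta17537) was at 5405, 6030 and 6200 in immature and at 2381, 3174 and 3138 in mature nectaries, a log2 fold change of -1.03 (SE 0.17, adjusted p = 0.00107). PDI-like 1-4 (Ta05886) was at 1866, 2010 and 2481 and at 1021, 906 and 1174, a log2 fold change of -1.03 (SE 0.17, adjusted p = 0.000878). PDI-like 5-4 (Ta20075) was at 526, 542 and 634 and at 233, 189 and 305, the largest fall of these 12 loci, with a log2 fold change of -1.25 (SE 0.19, adjusted p = 0.000661). In these 3 loci every mature sample was below every immature sample.

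PDI-like 1-3 (Ta07889) was at 812, 805 and 1009 in immature and 265, 492 and 524 in mature nectaries, and fell by 1.09 (adjusted p = 0.0065). PDI-like 2-2 (Ta05378) fell by 0.97 (adjusted p = 0.00931), from 401, 425 and 448 to 141, 263 and 274, and like PDI-like 1-3 it was lowest in mature replicate 1. PDI-like 5-3 (Ta13477) fell by 0.97 (adjusted p = 0.0018) and PDI-like 2-3 (Ta13189) fell by 0.59 (adjusted p = 0.0173). PDI-like 1-2 (Ta05750), the closest relative of PDI-like 1-1, was not called (adjusted p = 0.0697). It was at 1456, 1633 and 2649 in immature and 779, 978 and 1705 in mature nectaries, with replicate 3 the highest in each stage and overlapping stages, and the adjusted p was 0.0157 without mature replicate 3 and 0.0321 after rescaling to totals. PDI-like 1-5 (Ta11015) was at 1158 ± 126 and 925 ± 34.6 (SD, n = 3, adjusted p = 0.0676, and 0.00682 after rescaling to totals) and PDI-like 5-1 (Ta18006) at 165 ± 18.3 and 199 ± 61.7 (adjusted p = 0.375).

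The ERO oxidoreductins pass electrons from PDI to oxygen and so keep PDI oxidised. ERO2 (Ta02284, AT2G38960) was at 149, 112 and 152 normalized counts in immature and at 300, 261 and 301 in mature nectaries, a log2 fold change of 1.07 ± 0.17 (adjusted p = 0.000734). It was the only locus outside plastids that rose by more than 2-fold, and rescaling the samples to their totals without ribosomal and organelle transcripts left none. ERO1 (Ta20917, AT1G72280) was at 133, 125 and 146 and at 132, 198 and 157, and was not called (log2 fold change 0.25, 95% interval -0.18 to 0.68).

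The 2 DERLIN loci did not fall. DERLIN-2.2 (Ta23761, AT4G04860) was at 395, 389 and 444 in immature and 526, 523 and 604 in mature nectaries, a log2 fold change of 0.43 ± 0.13 (adjusted p = 0.0207). This call was lost without immature replicate 1 (adjusted p = 0.0818), immature replicate 2 (0.089) or mature replicate 3 (0.0755), and under rescaling to the totals (0.0786). DERLIN-1 (Ta12905, AT4G29330) was at 1234, 1294 and 1225 and at 1136, 1113 and 1253, with a log2 fold change of -0.10 (95% interval -0.39 to 0.19).

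Of the 11 other loci tested outside plastids, 3 fell (27.3%), 1 rose (9.09%) and 7 were not called, against 35.9% lower and 28.4% higher of all loci. The median log2 fold change was -0.21. AT3G44330 (Ta19153), whose description gives a nicalin domain, was at 572, 651 and 729 in immature and 270, 251 and 265 in mature nectaries and fell by 1.30 (SE 0.14, adjusted p = 9.51e-05). ECA3 (Ta01739), a calcium-transporting ATPase of the endoplasmic reticulum type, was at 330, 358 and 371 and at 169, 124 and 166 and fell by 1.21 (SE 0.16, adjusted p = 0.00032). A vesicle transporter protein (Ta04844, AT3G22290) fell by 0.62 (adjusted p = 0.00751), from 804 ± 28.6 to 528 ± 90.9 (SD, n = 3), while AT1G65020 (Ta25665), of unknown function, rose from 289 ± 25.7 to 424 ± 40.5 (log2 fold change 0.55 ± 0.14, adjusted p = 0.00823). ERD2B (Ta26739), a receptor that returns escaped proteins to the endoplasmic reticulum, was not called at 828 ± 36 and 721 ± 109. Its 3 contigs were not alike: 1 went from 180 to 53.7 in mean, another from 249 to 326 and the third from 399 to 342. The other loci not called had log2 fold changes from -0.40 to 0.36. They included 3 vesicle transporter loci, and of these Ta17493 had an adjusted p of 0.0403 without mature replicate 2, 0.00845 by median ratios and 0.00721 by trimmed means, and Ta26654 had one of 0.0428 without mature replicate 1 and 0.00423 after rescaling to totals. The vesicle transporter locus Ta06734 was called lower after rescaling to totals (0.0174).

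The 16 loci of plastids were taken by shared words and belong to another entry route. They include the TOC and TIC complexes, which import proteins through the outer and inner plastid envelope, and the chloroplast SRP, which guides light-harvesting proteins to thylakoids. Of the 14 tested, 7 fell (50%), 3 rose (21.4%) and 4 were not called, against 35.9% lower and 28.4% higher of all loci. The median log2 fold change was -0.46 (-0.31 without mature replicate 2). The chloroplast SRP54 (Ta21680) was at 571, 532 and 753 normalized counts in immature and 120, 60 and 138 in mature nectaries and fell by 2.60 (SE 0.30, adjusted p = 0.000163), whereas the SRP54 outside plastids rose. TIC110 (Ta12748) was at 882, 896 and 1155 and at 367, 222 and 325, a log2 fold change of -1.70 (adjusted p = 0.000223). TOC33 (Ta14400), a receptor, fell by 1.38 (adjusted p = 0.000172), and the channel TOC75-III (Ta21222) fell by 1.30 (adjusted p = 0.000468). The chloroplast SRP receptor cpFTSY (Ta07216) and the receptor TOC159 (Ta17867) had log2 fold changes of -1.14 and -0.98. The opposite direction was seen for TIC20-IV (Ta13773), at 68, 79 and 66 in immature and 199, 235 and 241 in mature nectaries, a log2 fold change of 1.65 ± 0.17 (adjusted p = 7.62e-05).

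The smaller plastid calls changed when samples were left out. The chloroplast SRP component cpSRP43 (Ta13298) rose from 824 ± 66.8 to 1137 ± 44.9 (SD, n = 3, log2 fold change 0.47), with an adjusted p of 0.0129 that was 0.0722 without immature replicate 2. TIC55-II (Ta22372) rose from 888 ± 64.7 to 1267 ± 197 (adjusted p = 0.0223), but was not called without immature replicate 1 (0.0644), immature replicate 2 (0.09), mature replicate 1 (0.0557) or mature replicate 3 (0.0783). Its 4 contigs were not alike. They went from 481 to 797, from 165 to 203, from 178 to 149 and from 63.7 to 117 in mean. TOC64-III (Ta18773) fell by 0.49 (adjusted p = 0.0268), and was not called without immature replicates 1 (0.0931), 2 (0.0527) or 3 (0.0791). TIC21 (Ta19206) and TOC132 (Ta20326) were not called, with adjusted p of 0.0584 and 0.11 that were 0.0405 and 0.0368 without mature replicate 1. TIC21 was called lower under all 3 rescalings (adjusted p of 0.00179, 0.0376 and 0.0424), and TOC132 after rescaling to totals (0.00373). Immature replicate 3 was the highest immature sample in 12 of the 14 plastid loci and mature replicate 2 the lowest mature sample in 11, against 51.3% and 66.2% of all loci tested.

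Among the 50 loci outside plastids, immature replicate 3 was the highest immature sample in 24, near the share over all loci. Mature replicates 1 and 2 were each the lowest mature sample in 23 of the 50, against 11.6% and 66.2% of all loci tested, and mature replicate 3 was the highest in 28, against 28.0%. Mature replicate 1 also had the highest values of the pollen genes, and the part of pollen in these ranks was not tested. Without mature replicate 1 the falls called among all members numbered 36 and the rises 7, and without mature replicate 2 they numbered 34 and 10.

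Related loci were compared within each sample, where the ratio does not move with the scaling of the sample. Of 16 pairs, 7 had ratios that did not overlap between the stages. Each of these had an exact two-sided permutation p of 0.1, the smallest that 3 against 3 samples allow, and 0.229 after adjustment over the 16 pairs, so no pair could pass the threshold. The ratio of calreticulin 1a to calreticulin 3 was 3.66, 3.84 and 3.42 on the log2 scale in the immature and 0.94, 1.82 and 1.67 in the mature samples, a mean difference of -2.17. That of calreticulin 1b to calreticulin 3 was 2.70, 2.86 and 2.69 and then -0.44, 0.68 and 0.13, a difference of -2.63, and the mature samples lay on either side of 0. Calreticulin 1a to 1b differed by 0.47.

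DERLIN-1 to DERLIN-2.2 had log2 ratios of 1.64, 1.73 and 1.46 in immature and 1.11, 1.09 and 1.05 in mature nectaries, a difference of -0.53. The catalytic oligosaccharyltransferase subunits STT3A and STT3B are not among the 69 loci. Their log2 ratio was also lower in mature nectaries, going from 1.05, 1.21 and 1.09 to 0.15, 0.26 and 0.22, a difference of -0.91. Both STT3 loci were called lower, whereas DERLIN-1 was not called and DERLIN-2.2 was called higher. The 2 SEC61 beta loci differed by -0.69, with Ta03315 falling more than Ta05866. The signal peptidase loci Ta01467 and Ta08108 had log2 ratios of -1.16, -1.19 and -1.19 in immature and -0.50, -0.24 and -0.34 in mature nectaries, a difference of 0.82. The other 9 pairs overlapped. Among these were the calnexin loci (difference 0.23, exact p = 0.6), the 3 SEC61 gamma pairs and PDI-like 1-1 with 1-2 (-0.27, exact p = 0.5). Overlap of the ratios does not show that the members of a pair changed alike.

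**Figure D3:**
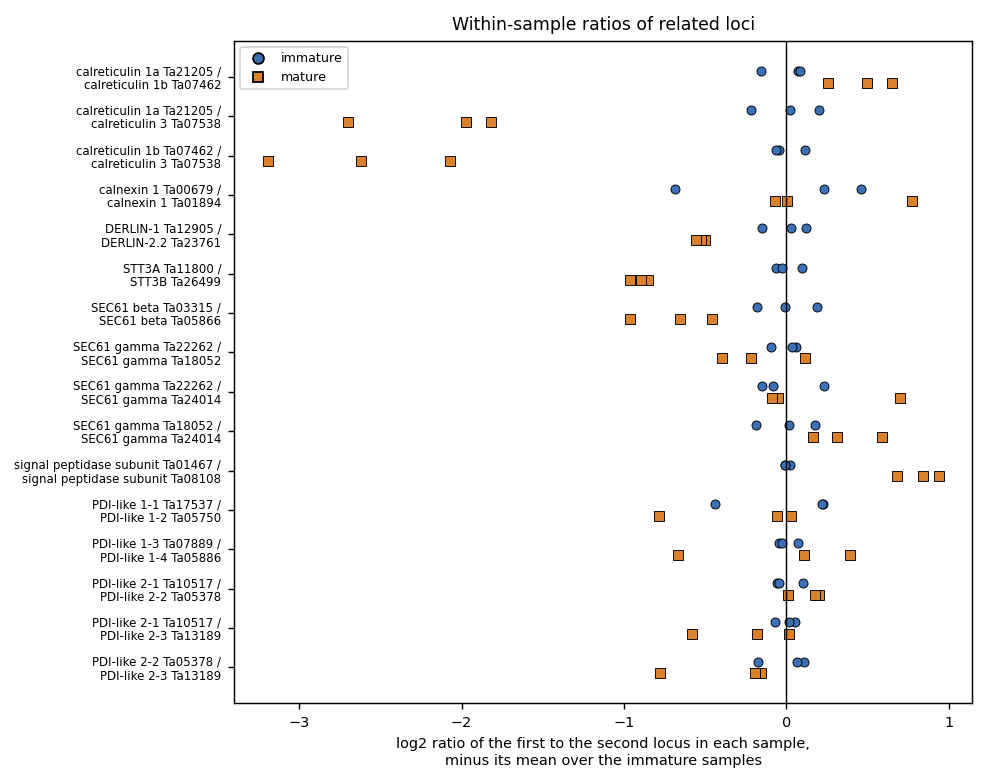
Log2 ratio of the first to the second locus of each of 16 pairs in every sample, minus its mean over the immature samples, so that the immature samples (blue circles) lie around 0 and a mature sample (orange square) to the left has less of the first locus relative to the second. The mature samples of the 2 pairs with calreticulin 3 lie furthest from the immature ones, and 9 pairs overlap.

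Other genes of the pathway come from a list of 36 Arabidopsis genes written from textbook knowledge, with earlier results of these data known. Of these, 29 had a locus, of which 2 (ERO1 and ERO2) were already members, and the rest had 30 loci. Of the 30 loci, 18 fell (60%), 7 rose (23.3%) and 5 were not called, against 35.9% lower and 28.4% higher of all loci tested. Beyond 2-fold were 9 falls (30%) and 4 rises (13.3%), against 23.0% and 13.8% of all loci. Neither share of rises was above that of all loci. The median log2 fold change was -0.54. The general chaperones fell: BiP, the HSP70 of the compartment, had 3 loci. BiP2 (Ta13239) was at 3057, 3273 and 3889 normalized counts in immature and 839, 945 and 1184 in mature nectaries and fell by 1.79 (SE 0.18, adjusted p = 6.69e-05). The BiP1 loci Ta09917 and Ta03463 had log2 fold changes of -1.43 (adjusted p = 0.000465) and -0.66 (adjusted p = 0.0108). BiP genes are near copies of each other, so reads may have been split between these loci. SHEPHERD (Ta11607), the HSP90 of the compartment, was at 19589, 20132 and 20780 and at 8590, 6397 and 8094, a log2 fold change of -1.40 (SE 0.19, adjusted p = 0.00039).

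Glycan transfer fell with the chaperones. STT3A (Ta11800) was at 1251, 1429 and 1440 in immature and 317, 352 and 381 in mature nectaries, a log2 fold change of -1.97 (SE 0.14, adjusted p = 1.29e-05). STT3B (Ta26499) fell by 1.06 (adjusted p = 0.000185). ERD2 (Ta02982), the receptor for retrieval, fell by 1.80 (SE 0.21, adjusted p = 0.000147), unlike ERD2B among the members.

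Of the 18 falls, those of the transcription factor bZIP17 (Ta07279, adjusted p = 0.0254) and of a SEL1L/HRD3 locus (Ta01343, adjusted p = 0.0363) were lost without single samples, with adjusted p of up to 0.0766 (without immature replicate 3) and up to 0.107 (without immature replicate 3).

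The 7 loci that rose were those of BAX inhibitor 1, UBC32 (2 loci), IRE1A, IRE1B, HRD1A and bZIP28. Other listed genes of degradation did not rise: OS9 (Ta24394) fell by 0.86 (adjusted p = 0.000803), the SEL1L/HRD3 locus Ta12989 fell by 0.88 (adjusted p = 0.00271) and HRD1B (Ta23772) was not called (log2 fold change -0.23, adjusted p = 0.245). BAX inhibitor 1 (Ta19878), a membrane protein that restrains cell death, was at 650, 682 and 674 in immature and 1532, 1605 and 1973 in mature nectaries, a log2 fold change of 1.34 ± 0.14 (adjusted p = 0.0001). UBC32, a ubiquitin-conjugating enzyme that in Arabidopsis acts on misfolded proteins of the endoplasmic reticulum, was at 367, 307 and 386 and at 915, 790 and 849 at its locus Ta08829 (log2 fold change 1.27 ± 0.14, adjusted p = 0.000127). The stress sensors IRE1A (Ta07554) and IRE1B (Ta07754), the other UBC32 locus, the ubiquitin ligase HRD1A (Ta16700) and the transcription factor bZIP28 (Ta06140) also rose, by log2 fold changes of 1.20, 0.71, 0.99, 0.51 and 0.50. The call of bZIP28 was lost without immature replicate 2 (adjusted p = 0.0654) or mature replicate 3 (0.0502), and that of HRD1A without immature replicate 1 (0.0729), immature replicate 2 (0.0904) or mature replicate 3 (0.0737). The transcription factor bZIP60, which IRE1 activates, was not called at 281, 537 and 342 and at 498, 358 and 502 (log2 fold change 0.26, adjusted p = 0.383). A summed read count does not show whether bZIP60 was activated.

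**Figure D4:**
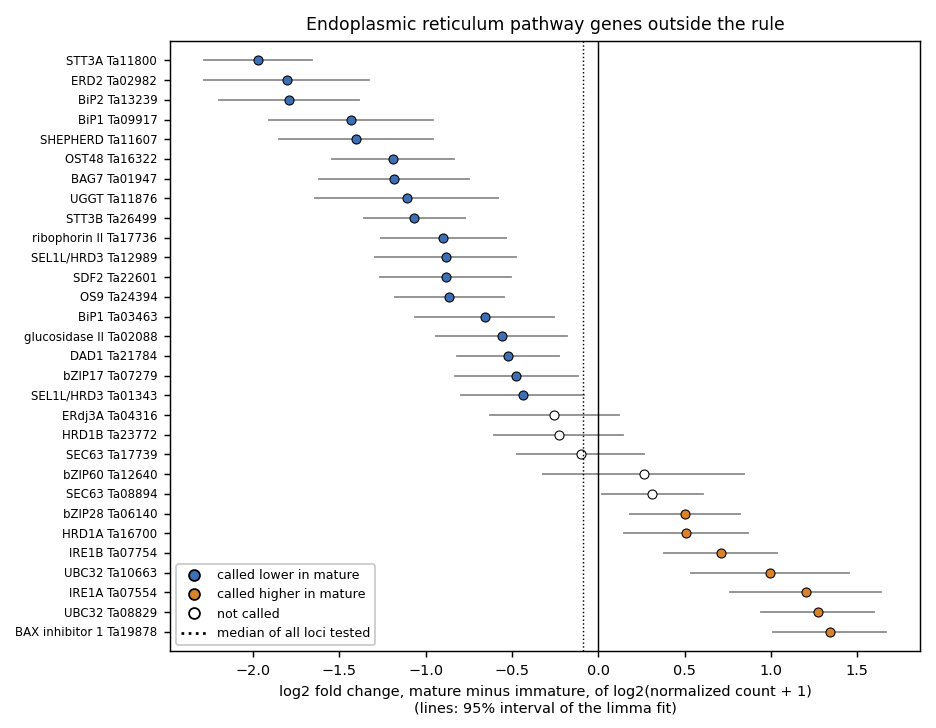
Log2 fold change, mature minus immature (3 samples each), with 95% intervals of the limma fit, at the 30 loci of listed endoplasmic reticulum genes that are not among the 69; colours mark the call as in the plot of log2 fold changes by role. STT3A, ERD2, BiP2, BiP1 and SHEPHERD lie at the left, and BAX inhibitor 1, UBC32 and IRE1A at the right.

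The scaling of the samples set part of these counts. Rescaling moved the median of all loci by -0.17 (totals without ribosomal and organelle transcripts), 0.12 (median ratios) or 0.13 (trimmed means), and the share of all loci called lower or higher from 35.9% and 28.4% to 44.2% and 25.2%, 34.7% and 35.3%, or 34.2% and 35.8%. No call among the 64 loci turned to the opposite direction, and 38 of the 41 calls held under all 3 rescalings, while 34 held in every alternative that gave a value. Of the 23 loci not called, 14 stayed so under all 3 rescalings and 12 in every alternative.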

How the data were processed

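The authors built contigs per stage in Trinity, added those of a previous transcriptome, assigned reads to contigs with blastn (E-value cutoff of 1e-05), upper-quartile normalized the counts and rounded them. The deposited score per contig and sample is this rounded normalized count, so no count model was used. The deposited ratios and p-values of the authors' own comparison were not used. The loci are the authors' predicted proteins of the draft pennycress genome, whose version the sources used here do not state, and no genome sequence was read here.

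Scores were summed over the contigs of a locus (16074 contigs, 617 without a locus left out), and annotation came from the contig with the highest mean. 3 loci (plastidic signal peptidase 1, SECE and TOC120) were moved to plastids by hand. Loci whose mean reached 100 at one stage or the other were tested in 1 limma fit (version 3.58.1, R 4.3.3) of log2(score + 1) with an intensity-dependent prior variance (trend), over the 3 immature and 3 mature samples, with Benjamini-Hochberg adjustment over all 11780 loci. Fold changes on this scale understate those of low loci. Ratios of related loci were tested with exact permutation tests. Python 3.11.15 was used with numpy 2.4.6, scipy 1.17.1, pandas 2.3.3 and matplotlib 3.10.9.

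The members, roles and lists were chosen with earlier results of these data known. Loci named were, in each role, up to 4 called with the smallest adjusted p, the one with the highest mean, the called one moving against its class and members of the pairs. Other members are named where leaving out a sample changed their call or where they complete a family. Of the pathway list they were up to 6 called with the smallest adjusted p, BiP and SHEPHERD. SEC61 alpha, SEC63, ERD2B, IRE1A, IRE1B, HRD1A, HRD1B, OS9, SEL1L/HRD3, bZIP17, bZIP28 and bZIP60 were named after their values were seen. In a simulation on 10799 loci, 24 of 50 loci with a 1.5-fold difference, 50 of 50 with a 2-fold difference and 3 of 10600 with none were called. The simulation changed far fewer loci than were called in the data and gave all loci the same relative spread. Its rates therefore do not carry over to the data.

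Depth was approximated from the steps between low values, and error from sampling cannot be told from that between samples. Alternatives were pseudocounts of 0.5 and 10, no filter or one at 500, 3 rescalings (the trimmed mean of M values in a plain form without weights), the most abundant contig, limma without trend or with robust moderation, a replicate block, a threshold of 0.01 and leaving out each sample. The labels say that samples came from different plants.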

Additional observations from a re-analysis of the deposited data

How the results depend on the processing

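No call among the members or the pathway loci turned to the opposite direction in any alternative. The count of members that fell (33) ranged from 25 with a filter at 500 to 41 after rescaling to totals, and over samples left out from 29 to 36. The count that rose (8) was 5 with a filter at 500, 5 at a threshold of 0.01 and 5 outside plastids, and 5 to 10 without single samples. Rises beyond 2-fold (2) were 0 with a filter at 500 and 1 after rescaling to totals, and 1 to 4 without single samples. Outside plastids, 3 loci rose with a filter at 500, and 0 of them beyond 2-fold. That last count was 0 after rescaling to totals, 2 by median ratios and 2 by trimmed means, and 0 to 3 without single samples.

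With a filter at 500 the median log2 fold changes were -0.69 for all members, 0.32 for targeting, -0.41 for other loci and -0.98 for plastids, since fewer loci were tested. Without a filter they were 0.048 for targeting and -0.68 for plastids. After rescaling to totals they were -0.66 for all members, -0.68 outside plastids, 0.035 for targeting and -0.63 for plastids. By median ratios they were -0.40 and -0.45 for all members and those outside plastids, and by trimmed means -0.39 and -0.43, with -0.093 for other loci. Without single samples the median ranged from -1.03 to -0.59 for disulfide formation and from -0.54 to -0.31 for plastids. The other medians stayed within the spread between samples, and the pair ratios that did not overlap kept their sign in the alternatives run. The labels link same-numbered samples by nothing but the number. Correlations of their deviations from the stage means were -0.07, 0.01 and 0.20, and not every sample correlated best with its own number. With 3 samples per stage, these values cannot tell whether same-numbered samples were collected together. A replicate block gave 36 falls and 8 rises, with 3 members called that were not called without it, PDI-like 1-2 (Ta05750, adjusted p = 0.00252), TIC21 (Ta19206, 0.0314) and SEC61 gamma (Ta22262, 0.0423), and none lost. Members not called may still have changed. The simulation called only part of the loci with a 1.5-fold difference, but its setting differed from the data. It therefore does not give the size of change that may have been missed.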

Other observations

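Of the contigs with no locus, which entered no comparison, 2 had descriptions that the word rule takes. A contig of calreticulin 1a was at 372, 392 and 256 normalized counts in the immature and 52, 80 and 84 in the mature samples, a ratio of means of 0.212, with no overlap between the stages. A contig of the SEC61 gamma gene AT5G50460 was at 243, 256 and 197 and at 139, 191 and 136, a ratio of 0.67. PDI-like 2-1 (Ta10517), which the rule dropped because its description names thioredoxin, was 4495 in mean in immature and 2587 in mature nectaries, a fall of 0.84 on the log2 scale (SE 0.24, limma adjusted p = 0.0161).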
